A study of Mus musculus with 36 samples.

Results

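Actb, Actc1, Pfn1 and Vim were followed in NIH3T3 mouse fibroblasts after tetracycline had been given to switch off an Erbb2 transgene. The 4 genes were taken as every probe whose platform symbol is one of these names, which gave 7 of 20355 probes and 4 of 9930 named genes. Actb, Pfn1 and Vim had 2 probes each and Actc1 had 1. The genes were selected on their levels in these same groups, with the results known, so their levels and their differences between groups are given as a description without p-values.

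The treated groups were Erbb2-transfected cells of a tet-off line, in which tetracycline stops the transgene, collected after 1, 2, 4, 12 or 24 h or after 3, 5 or 7 days, with 4 dual-colour cDNA arrays per time. The control group was the same transfected line without tetracycline, with 3 distinct arrays, since replicates 1 and 2 of it held the same values up to a shift of 0.771 (SD 0.00051 over 19840 values). They differed by less than sampling noise and were counted as 1 sample. Channel 2 held untreated Erbb2-transfected cells on every array according to the sample labels, whereas the labelling protocol speaks of a reference pool from control animals. The series' design text also mentions different untreated lines as controls, which the labels do not tell apart. Tetracycline was present in every treated group and in no untreated one, so the drug and the loss of the transgene cannot be told apart. The labels give no time for the untreated cells, so time in culture and handling cannot be told apart from these either. Erbb2 itself was not analysed here, so the switch-off was not checked.

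Actin exists as free monomers and as filaments, and cells move between these states to crawl, divide and hold their shape. Profilin, the product of Pfn1, binds actin monomers and delivers them to growing filament ends. Vimentin builds the intermediate filaments of fibroblasts and other mesenchymal cells. Free actin monomers also hold back the myocardin-related cofactors of serum response factor (SRF), a transcription factor that acts on CArG boxes and drives actin genes and immediate early genes.

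The values are log2 ratios, centred on each array's median. Replicates 1 and 2 carried channel 1 in Cy5, while replicates 3 and 4 carried it in Cy3 and had their sign turned. Values above 0 are read as more RNA in channel 1, a direction that is an assumption and that no file states. Ratios carry no level, so one gene's abundance could not be set against another's, and the fibroblast identity of the cells could not be checked against marker levels. In such bulk RNA fewer cells with a transcript and less of it per cell cannot be told apart. The interquartile range of all probes was 0.357 to 0.504 log2 units on arrays of 1 to 24 h and 0.493 to 0.70 on untreated arrays. On those of 3 to 7 days it was 0.695 to 1.42, so values spread more widely there. Noise and change in RNA cannot be told apart in that range.

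The 250 bases before the annotated start were available in RefSeq (GRCm38.p6) for Actc1 (chr2:114052876-114053125, minus strand), Pfn1 (chr11:70654651-70654900, minus strand) and Vim (chr2:13574061-13574310, plus strand). They are shown because actin genes are textbook SRF targets, and capitals mark each CArG box, CCAAT or TATAAA found on either strand, written 5′ to 3′ along the gene.
Actc1: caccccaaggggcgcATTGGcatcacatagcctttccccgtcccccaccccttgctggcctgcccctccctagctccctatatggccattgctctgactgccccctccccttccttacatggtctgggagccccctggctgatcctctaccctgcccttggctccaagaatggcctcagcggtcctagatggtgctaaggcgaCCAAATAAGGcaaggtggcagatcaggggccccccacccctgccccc
Pfn1: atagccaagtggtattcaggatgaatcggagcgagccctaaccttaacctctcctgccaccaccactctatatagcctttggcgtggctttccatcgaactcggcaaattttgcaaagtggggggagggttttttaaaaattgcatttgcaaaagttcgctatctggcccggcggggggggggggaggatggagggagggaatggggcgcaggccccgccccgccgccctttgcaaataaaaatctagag
Vim: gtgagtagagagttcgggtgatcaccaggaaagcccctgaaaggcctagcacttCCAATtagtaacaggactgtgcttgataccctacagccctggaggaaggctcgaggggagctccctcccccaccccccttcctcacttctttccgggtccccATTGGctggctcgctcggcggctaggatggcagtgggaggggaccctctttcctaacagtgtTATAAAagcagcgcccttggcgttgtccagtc
A CArG box (CC, 6 bases of A or T, GG) stood in the Actc1 window as CCAAATAAGG, at bases 204 to 213. It was the only one in the 3 windows, and 1.47% of 32851 promoter windows of this length held one. CCAAT stood once in the Actc1 window and at 2 places in the Vim window, against 33.9% of all windows with at least 1. TATAAA stood in the Vim window alone, against 12.4% of all windows.

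All 4 genes were above the untreated channel on every array of 2 and 4 h. The 7 probes gave 28 values at each of these times, and 28 of 28 lay above 0 at 2 h and again at 4 h. Over all probes, 30.1% had 1 sign on all 4 arrays at 2 h and 18.6% at 4 h. Selection of the genes on these levels favours a shared sign, so nothing is read from that contrast. At 1 h 18 of the 28 values lay above 0, at 12 h 16 and at 24 h 19. In the untreated arrays 6 of 21 did. The 4 genes did not run together at the other times. At 1 h Vim averaged -0.20, while Actb, Actc1 and Pfn1 averaged 0.27, 0.42 and 0.32. At 12 h Vim averaged -0.22 and the others 0.10, 0.23 and 0.24. At 5 days every value of Vim lay below 0, while the means of Actb, Actc1 and Pfn1 were -0.04, 0.02 and -0.12.

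**Figure D1:**
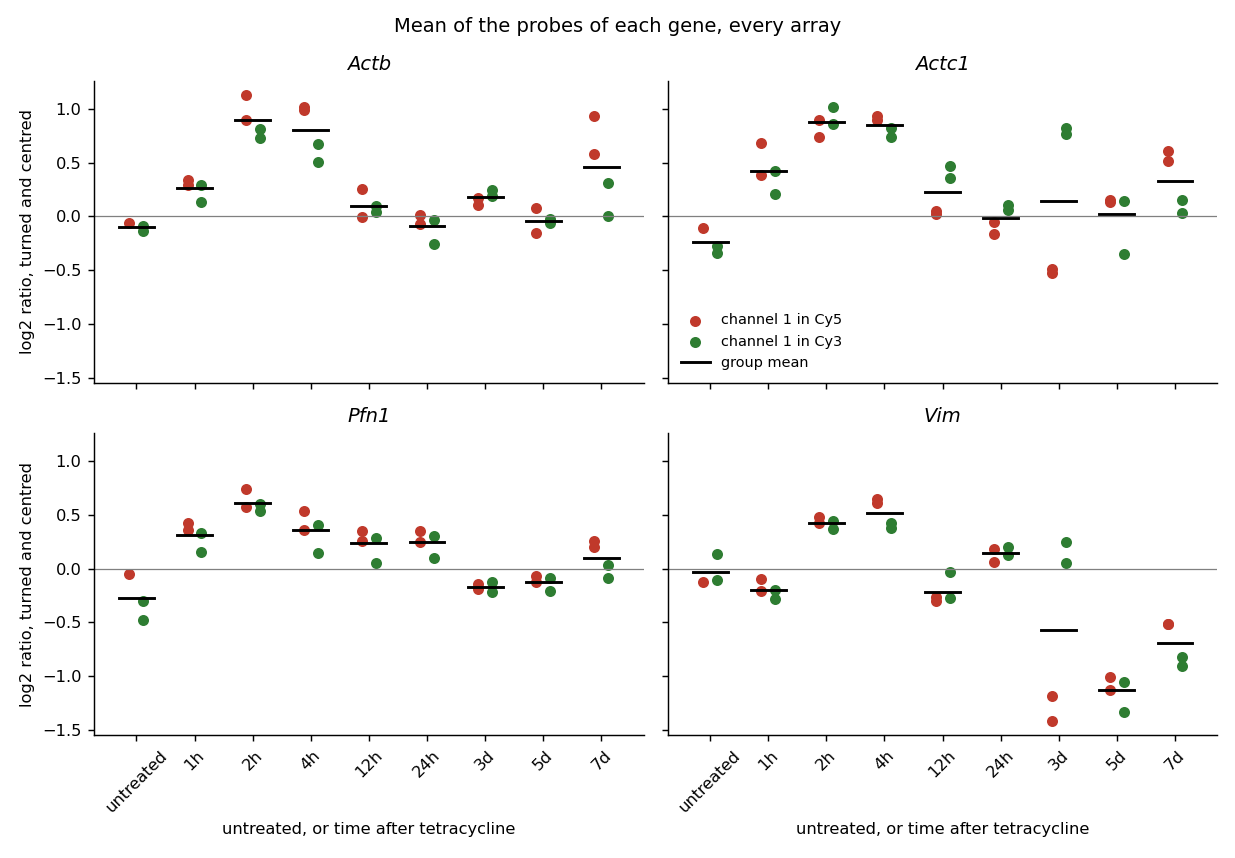
Log2 ratio (turned and centred) of Actb, Actc1, Pfn1 and Vim as the mean of each gene's probes, by group from untreated to 7 days, with 1 point per array coloured by the dye of channel 1 and a bar for the group mean. All 4 genes peak at 2 or 4 h, Vim is lowest at 5 days with a mean of -1.13, and the Cy5 and Cy3 arrays of 3 days split in Actc1 and Vim.

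In limma's linear model over all 35 arrays, with Benjamini-Hochberg adjustment over every feature and a call at an adjusted p under 0.05, the number of the 4 genes called differed by time. At 1 h 1 of the 4 was called against 0.168% of all features, at 2 h 3 against 0.512%, and at 4 h 2 against 0.225%. At 12 h 0 were called against 0.0135%, at 24 h 0 against 0.0203%, and at 3 days 0 against 0.582%. At 5 days 1 was called against 2.2%, and at 7 days 0 against 0.881%. Because the genes were picked from these comparisons, nothing is read from the counts. All 8 comparisons share the same 3 untreated arrays.

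Actb encodes the cytoplasmic beta-actin and is a common loading control. The gene mean of its probes was 0.90, 1.13, 0.81 and 0.73 in replicates 1 to 4 at 2 h and 0.99, 1.02, 0.51 and 0.68 at 4 h, against -0.06, -0.13 and -0.09 in untreated replicates 1, 3 and 4. No array of either time overlapped the untreated ones. Actb was 0.96 above untreated cells at 2 h (SE 0.148, a fold of 1.95) and 0.87 above at 4 h (SE 0.148, a fold of 1.82), both called. At 1 h the arrays ran between 0.14 and 0.34, a difference of 0.33 from untreated that was not called.

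The rise in Actb was not kept. At 12 h its mean was 0.10 ± 0.11 (SD, n = 4) and at 24 h -0.09 ± 0.12, against -0.10 ± 0.04 in untreated cells (n = 3). At 24 h Actb was 0.02 below untreated cells on the log2 scale of the fit, with values that overlapped theirs. At 7 days the mean was 0.46 ± 0.39, with 0.58 and 0.93 on the Cy5 arrays and 0.01 and 0.31 on the Cy3 arrays, against the same untreated values. That difference of 0.53 (SE 0.148) was not called, but was called without 7d replicate 3.

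The 2 Actb probes gave the same account of 2 and 4 h but not of the rest of the course. Probe 11344 averaged 0.97 and probe 18947 0.82 at 2 h, and at 4 h they averaged 0.79 and 0.81. Over all 35 arrays their Pearson r was 0.50, above that of 95.0% of 1530 genes with a pair of probes (median r 0.031). Selection of the genes on their levels in these groups favours a higher r, so nothing is read from that rank. Probe 11344 followed the single Actc1 probe more closely than its own partner, with an r of 0.92 and a median absolute difference of 0.112. An r this high was not particular to actins, since Aadat, an aminotransferase gene, had an r of 0.94 with the Actc1 probe. Actin coding sequences are alike between isoforms, so cDNA probes for one may bind transcripts of another. Whether that happened was not tested, and the Actb and Actc1 values are uncertain as measures of single genes for this reason.

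**Figure D2:**
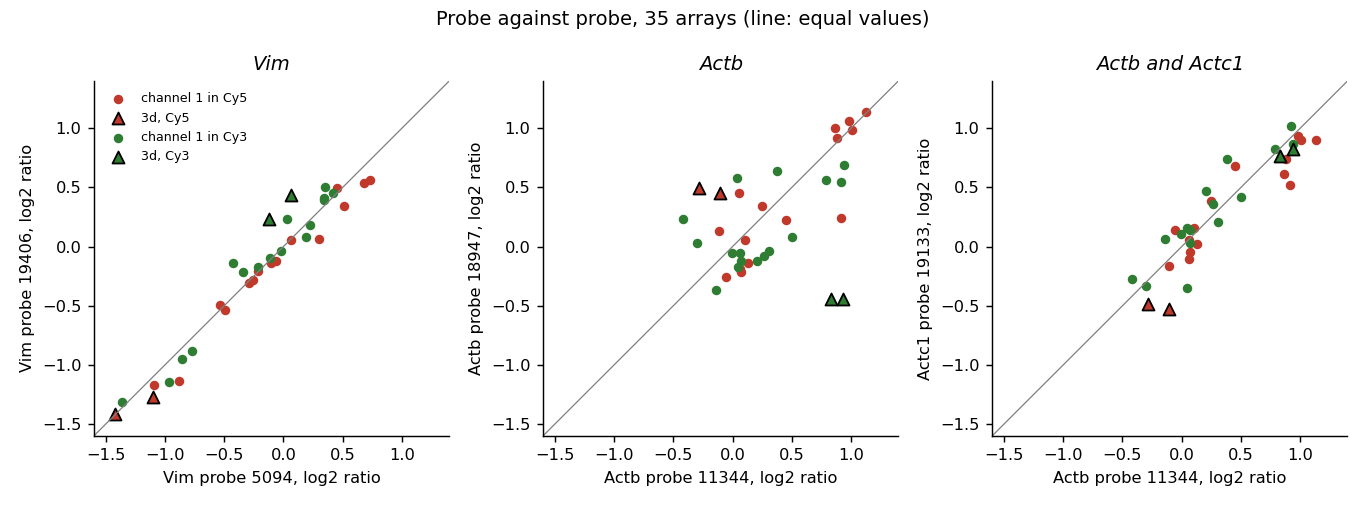
Log2 ratio on each of 35 arrays for pairs of probes (Vim 5094 and 19406, Actb 11344 and 18947, and Actb 11344 with Actc1 19133), with the arrays of 3 days as triangles and the line of equal values in grey. The Vim pair (r = 0.97) and the Actb and Actc1 pair (r = 0.92) lie near the line, and the Actb pair (r = 0.50) does not, with the 3 day Cy3 arrays at 0.83 and 0.94 on one probe and at -0.44 on the other.

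Actc1 encodes cardiac alpha-actin, an isoform best known from striated muscle. Its probe read 0.74, 0.90, 0.86 and 1.02 at 2 h and 0.90, 0.94, 0.74 and 0.82 at 4 h, against -0.10, -0.34 and -0.28 in untreated replicates 1, 3 and 4. The arrays of both times lay well clear of the untreated ones. Actc1 was 1.13 above untreated cells at 2 h (SE 0.247, a fold of 2.19), which was called. At 4 h it was 1.10 above (SE 0.247), which was not called here but was in the fit restricted to arrays of 1 to 24 h and untreated cells (1.09, SE 0.132) and in 6 other settings given with the limits. The call at 2 h was lost on leaving out any one of the 2h arrays, untreated replicate 3 or untreated replicate 4, with differences from 1.07 to 1.17.

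The other times of Actc1 were lower. At 1 h it read 0.68, 0.39, 0.42 and 0.21, all above the untreated arrays, and the difference of 0.68 was not called. At 12 h the mean was 0.23 ± 0.22 (SD, n = 4) and at 24 h -0.01 ± 0.12, against -0.24 ± 0.12 in untreated cells (n = 3). At 5 days 3 arrays read 0.14, 0.16 and 0.14 and replicate 4 read -0.35. At 7 days the Cy5 arrays read 0.52 and 0.61 and the Cy3 arrays 0.03 and 0.15, all above the untreated range.

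Pfn1 had smaller differences at 2 and 4 h than the actin genes, and by gene mean stayed above the untreated range through the first day. Its gene mean was 0.43, 0.36, 0.33 and 0.16 at 1 h, 0.58, 0.74, 0.60 and 0.54 at 2 h, and 0.36, 0.54, 0.15 and 0.40 at 4 h, against -0.05, -0.30 and -0.48 in untreated replicates 1, 3 and 4. By gene mean, at every time from 1 to 24 h all 4 arrays lay above all 3 untreated ones. Probe 6010 alone kept that separation at each of these times, whereas probe 2958 kept it at 2 h and overlapped the untreated range at 1, 4, 12 and 24 h. Pfn1 was 0.57 above untreated cells at 1 h (a fold of 1.48), 0.87 at 2 h (a fold of 1.82) and 0.62 at 4 h (a fold of 1.53), each with an SE of 0.117 and each called. At 12 and 24 h the differences were 0.49 and 0.50, with the same SE and no call. On the single probes the 24 h difference was 0.80 for probe 6010 (SE 0.197) and 0.20 for probe 2958 (SE 0.172).

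The call at 2 h stood on leaving out each array in turn, and those at 1 and 4 h did not. The 1 h difference lost its call without any single 1h array and without untreated replicate 3 or 4, and the 4 h difference without 4h replicate 2 or 4 or untreated replicate 3 or 4. Untreated replicate 4 read -1.002 on Pfn1 probe 6010 and 0.04 on probe 2958, while untreated replicates 1 and 3 read -0.05 and -0.24 on probe 6010. Without that array the Pfn1 differences at 1, 2 and 4 h were 0.49, 0.79 and 0.54. The 2 Pfn1 probes correlated at an r of 0.26, above that of 80.4% of genes with a pair of probes, a rank that the selection of the genes also favours.

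By gene mean Pfn1 was back near its untreated values at 3 and 5 days. The mean was -0.17 ± 0.04 at 3 days and -0.12 ± 0.06 at 5 days (SD, n = 4), against -0.28 ± 0.22 in untreated cells (n = 3). The groups overlapped. On single probes the SD was 0.53 (probe 2958) and 0.52 (probe 6010) at 3 days, and 0.25 and 0.18 at 5 days. At 3 days probe 2958 read 0.21 and 0.08 on Cy5 and -0.73 and -0.79 on Cy3 arrays. Probe 6010 read -0.495 and -0.456 on Cy5 and 0.48 and 0.35 on Cy3 arrays. The probes cancel in the gene mean, so its small SD is not a sign of precision. At 7 days the gene mean of Pfn1 was 0.10 ± 0.16, a difference of 0.35 from untreated cells that was not called.

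Vim was the only one of the 4 genes called lower at any time. At 5 days its gene mean was -1.13, -1.01, -1.05 and -1.34 in replicates 1 to 4, against -0.12, -0.10 and 0.14 in untreated replicates 1, 3 and 4. Every array of 5 days lay below every untreated array, on both dyes. The difference was -1.08 (SE 0.247), a fold of 0.471, and was called. Leaving out untreated replicate 4 lost the call at a difference of -1.02, and leaving out any other single array kept it.

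At 7 days Vim was less far down, at -0.51, -0.51, -0.90 and -0.82, again below all untreated arrays. The difference of -0.64 (SE 0.247) was not called. None of the 7 day arrays reached as low as the highest 5 day array. In the first day Vim alternated: it averaged -0.20 ± 0.08 at 1 h, 0.43 ± 0.04 at 2 h, 0.52 ± 0.13 at 4 h, -0.22 ± 0.13 at 12 h and 0.15 ± 0.06 at 24 h (SD, n = 4 each), against -0.03 ± 0.14 in untreated cells (n = 3). The arrays of 2 and 4 h lay above the untreated range, and those of 1, 12 and 24 h overlapped it. The differences of 0.48 at 2 h and 0.56 at 4 h (SE 0.247 each) were not called in the fit of all arrays. In the fit restricted to arrays of 1 to 24 h and untreated cells they were 0.46 and 0.54 (SE 0.101 each), both called.

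The 2 Vim probes gave nearly the same values throughout, with an r of 0.97 and a median absolute difference of 0.070 over 35 arrays. This bears on the later times, because the deposited values of 5 and 7 days had slid against their probes by up to 4 rows, and by 1 row more in 5d replicate 1, and were moved back. Probe 5094 lies before the earliest slide, and only 5d replicate 1, which was displaced by 1 row throughout, had to be moved there. Probe 19406 lies after all 4 slides. Once moved, it read -1.17, -1.14, -1.15 and -1.31 at 5 days, beside -1.10, -0.88, -0.96 and -1.36 on probe 5094. In the rows as deposited, probe 19406 read 0.01, -0.20, 0.22 and 0.20 at 5 days. With every value left in its deposited row, the Vim difference at 5 days was -0.28 and was not called.

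**Figure D3:**
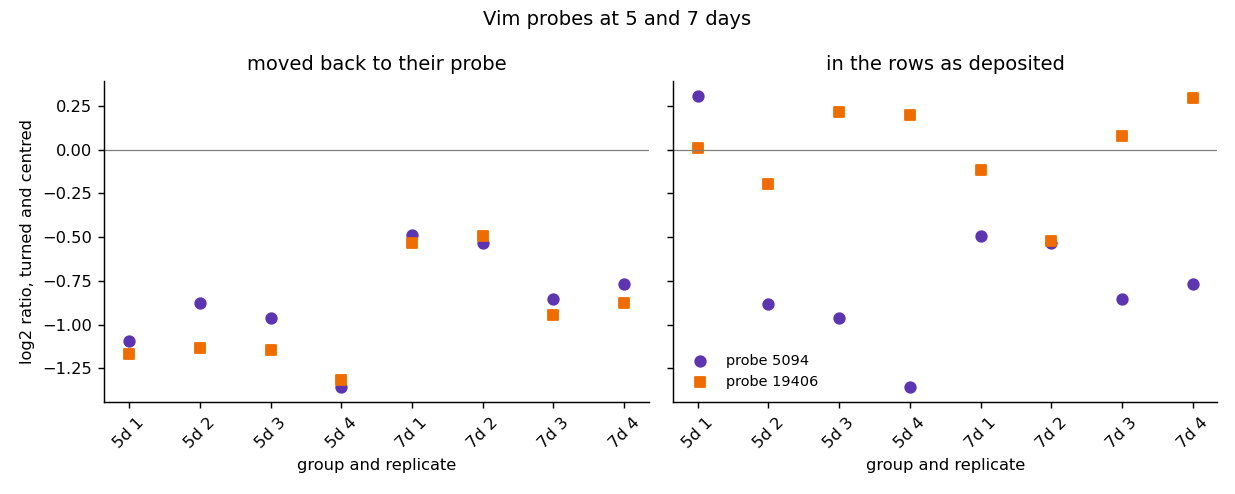
Log2 ratio of Vim probes 5094 and 19406 on the 8 arrays of 5 and 7 days, with values moved back to their probe on the left and in the deposited rows on the right. After the move the probes differ by at most 0.258, and in the deposited rows probe 19406 lies between -0.52 and 0.30 while probe 5094 stays low on 7 of 8 arrays.

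No other of the 4 genes has a probe before the earliest slide and another after the last, so this comparison could be made for Vim alone. The Actb probes lie on either side of the last slide only, and both had to be moved. Once moved they differed by up to 0.669 at 5 and 7 days. Actb probe 11344 was moved by 3 rows, and Actb probe 18947 and the Actc1 probe by 4, or by 4 and 5 rows in 5d replicate 1. Each lay at least 594 rows from the nearest slide. Both Pfn1 probes lie before the earliest slide, probe 6010 by 27 rows. With deposited rows the differences at 7 days were -0.06 for Actb and -0.28 for Actc1, in place of 0.53 and 0.58.

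At 3 days the arrays of the 2 dye orientations contradicted each other. For 6 of the 7 probes the mean of the Cy5 arrays and that of the Cy3 arrays had opposite signs after turning, against 65.4% of all probes. At 2 and 4 h 0 of the 7 probes did, against 39.2% and 51.1% of all probes. The genes were selected on turned values of these groups, which favours agreement of the orientations, so nothing is read from that contrast. Vim averaged -1.30 on the Cy5 arrays of 3 days and 0.15 on the Cy3 arrays, and Actc1 averaged -0.51 and 0.80. In Actb the opposition ran in contrary ways in the 2 probes: probe 11344 read -0.11 and -0.29 on Cy5 and 0.83 and 0.94 on Cy3, and probe 18947 read 0.46 and 0.50 on Cy5 and -0.44 on both Cy3 arrays. The Actb gene mean at 3 days, 0.18 ± 0.06 (SD, n = 4), therefore averages probes that disagree and its small SD is not a sign of precision. Both Pfn1 probes also ran in contrary ways at 3 days. Group means at 3 days are given here for completeness only.

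The dye orientation had no called effect on any of the 4 genes in the fit as a whole. The dye effect, which is the shift of Cy5 arrays from the mean of both orientations after turning, was 0.09 for Actb (SE 0.033, limma adjusted p = 0.15), 0.07 for Pfn1 (SE 0.026, adjusted p = 0.15), -0.05 for Actc1 (SE 0.055, adjusted p = 0.69) and -0.05 for Vim (SE 0.055, adjusted p = 0.64). Among all features 0.917% were called for it. A single effect per gene does not describe a dye difference of 1 group, such as that of 3 days.

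Within one dye orientation the early values kept their sign. At 2 h Actb averaged 1.02 on Cy5 and 0.77 on Cy3 arrays, Actc1 0.82 and 0.94, Pfn1 0.66 and 0.57, and Vim 0.45 and 0.41. At 5 days Vim averaged -1.07 on Cy5 and -1.20 on Cy3 arrays. With the Cy3 arrays left unturned, the orientations cancel, and the difference from untreated cells came to -0.03 for Actb at 2 h, -0.34 for Actc1 at 2 h, -0.25 for Pfn1 at 2 h and 0.18 for Vim at 5 days. Because the genes were selected on turned values, the kept signs and the cancelling were favoured by the selection and are no check of the turning.

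Ordered by gene mean, the 9 groups of Actb, Actc1 and Pfn1 began with 2 h and then 4 h and ended with the untreated cells. For Actb each group's range overlapped that of the next in order. In Actc1 the range of 4 h lay apart from the next group, 1 h, and all other neighbours overlapped. In Pfn1 all neighbours overlapped. The order of Vim began with 4 h and 2 h, had the untreated cells in place 4, and ended with 3, 7 and 5 days. In that order the ranges of 2 and 24 h lay apart, as did those of 7 and 5 days, and the other neighbours overlapped. Single probes did not all keep these orders. Untreated cells were in place 6 on Actb probe 18947 and in place 8 on Pfn1 probe 2958. On Pfn1 probe 6010, 24 h was in place 2 and 4 h in place 3.

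The wider cytoskeleton was read from 8 lists holding 98 symbols, of which 71 genes were tested at 1 time or more, and over the 8 times 5 calls were made on 4 of them, all tubulins. A list of SRF and its circuit and a list of reference genes were read beside them and gave 10 calls, on Egr1, Junb, Ppia and Rplp0. Over all features the share called ran from 0.0135% (12 h) to 2.2% (5 days). Nothing is therefore read from lists without calls. None of the 3 other actin genes was called at any time. At 2 h Actg1, the cytoplasmic gamma-actin, was 0.08 above untreated cells (SE 0.178), Acta2, the smooth muscle alpha-actin, 0.37 (SE 0.202) and Actg2, the smooth muscle gamma-actin, 0.11 (SE 0.368). Their median was 0.11 at 2 h and 0.14 at 4 h, against 0.02 and 0.01 over all features.

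The genes that build and regulate actin filaments gave no calls, which is near the share of all features. That share was 0.512% at 2 h and 0.225% at 4 h. Genes of the Arp2/3 complex, which starts branched filaments, and of capping proteins had a median difference of 0.64 at 2 h and 0.51 at 4 h, with 0 of 7 called at either time. Actr3, a core subunit, was 0.87 above untreated cells at 2 h with an SE of 0.563. For monomer-binding and severing genes the median was -0.01 at 2 h and 0 of 5 were called. Among them Tmsb4x, a thymosin that holds actin monomers, was at 0.25 (SE 0.226) and Gsn, the severing protein gelsolin, at -0.34 (SE 0.243).

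The signalling, cross-linking and contractile lists also had 0 genes called at any of the 8 times, against 0.0135% to 2.2% of all features. Their medians at 2 h were 0.20 over 9 genes, 0.31 over 10 and 0.24 over 17. The 8 other intermediate filament and lamina genes had 0 calls and a median of 0.08 at 5 days, the time at which Vim was at -1.08. Nes, the neural filament nestin, was at -0.59 there with an SE of 0.434, and Des, the muscle filament desmin, was at 0.32 with an SE of 0.214.

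Tubulin genes were the one structural list with calls, against 0.512% of all features called at 2 h and 0.225% at 4 h. At 2 h 4 of 11 rose: Tubb6 by 1.34 (SE 0.283, limma adjusted p = 0.022), Tuba4a by 1.10 (SE 0.247, adjusted p = 0.035), Tuba1a by 0.95 (SE 0.206, adjusted p = 0.026) and Tuba1b by 0.89 (SE 0.150, adjusted p = 0.0019). Tuba1b averaged 0.97 ± 0.13 at 2 h, against 0.05 ± 0.20 in untreated cells (SD, n = 4 and 3). At 4 h 1 of 11 rose, Tuba1b by 0.81 (adjusted p = 0.015). The list median was 0.69 at 2 h and 0.37 at 4 h. Tubulin genes are close copies of each other as well, so signal from one may be read on another's probe, which was not tested.

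**Figure D4:**
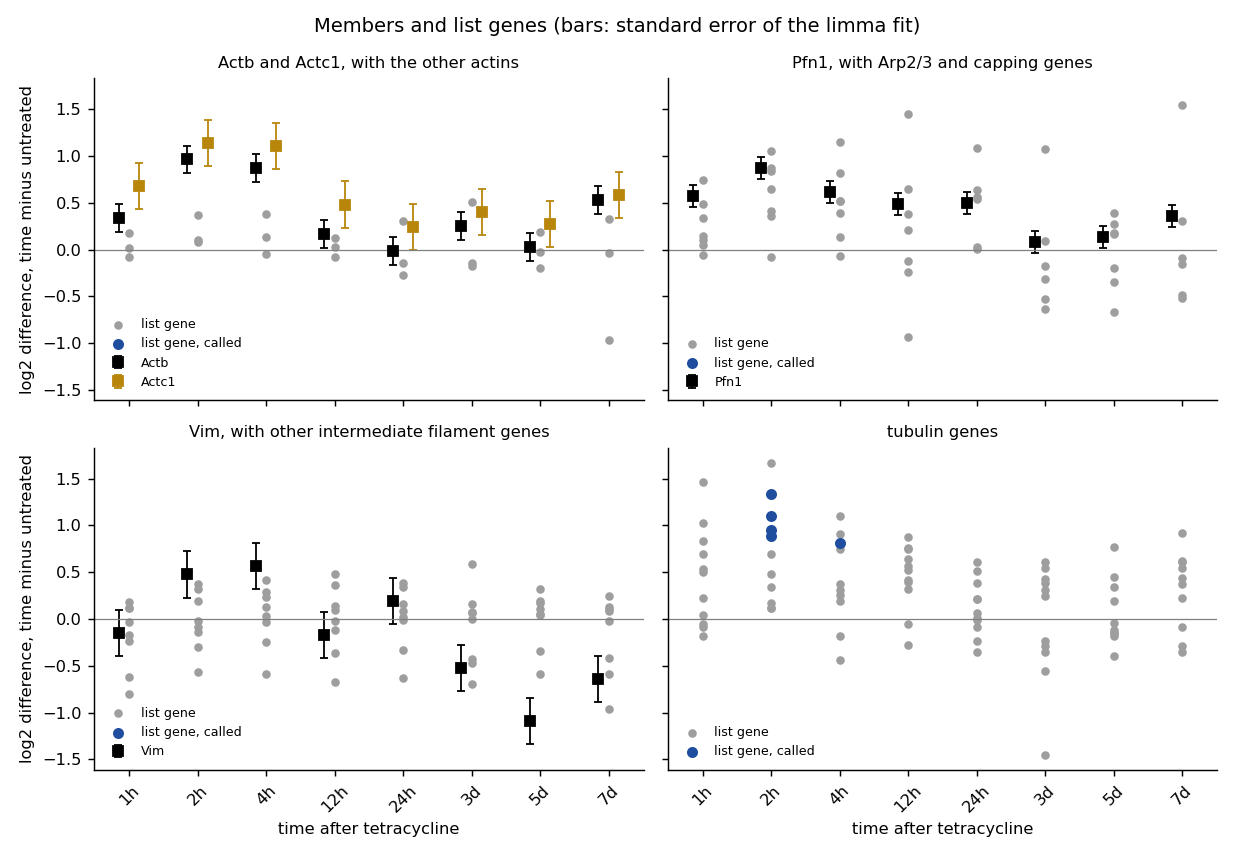
Log2 difference of each time from untreated cells for Actb and Actc1, Pfn1 and Vim (squares, with the standard error of the fit), and for single genes of 4 lists (grey points, blue where called). Other actin genes lie below Actb and Actc1 at 2 and 4 h, and the only called points are 4 tubulins at 2 h and 1 at 4 h.

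In the SRF list Egr1, an immediate early zinc finger factor, fell at 5 of the 6 times at which it was tested. Its difference was -2.25 at 2 h, -2.90 at 4 h, -2.21 at 12 h, -3.32 at 24 h and -1.46 at 3 days (SE 0.249 each, limma adjusted p from 1.34e-07 to 0.0094), and -0.20 at 1 h, which was not called. Egr1 averaged -2.60 ± 0.11 at 2 h, against -0.40 ± 0.17 in untreated cells (SD, n = 4 and 3). Actb and Actc1 were at their highest at that time. Junb, an AP-1 subunit, rose by 1.30 at 7 days (SE 0.214, adjusted p = 0.0012). The other genes of the list were not called, and its median was -0.07 at 2 h and -0.04 at 4 h.

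Of 6 genes often used as references, 2 were called at any time. Over all features 0.512% were called at 2 h, 2.2% at 5 days and 0.881% at 7 days. Ppia, cyclophilin A, rose by 0.82 at 2 h (SE 0.174, limma adjusted p = 0.022) and fell by 0.98 at 5 days (adjusted p = 0.0011). Rplp0, a ribosomal stalk protein, fell by 0.87 at 5 days (SE 0.158, adjusted p = 0.0012) and by 0.84 at 7 days (adjusted p = 0.0058). B2m, Sdha and Tbp had no call, and the differences of Tbp ran between -0.09 and 0.22 over the 8 times (SE 0.188). Gapdh, the glycolytic enzyme often used beside Actb, was between 1.29 and 1.46 above untreated cells from 1 to 24 h with an SE of 0.393 and no call. It averaged 0.89 ± 0.91 at 2 h, against -0.48 ± 0.47 in untreated cells (SD, n = 4 and 3).

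The features whose values ran most like each gene's were ranked by Pearson r over 35 arrays, as a description, since the arrays share the untreated channel and fall into the same groups. For Actb they were Ddx3x, an RNA helicase (r = 0.80), Dnaja1, a co-chaperone (r = 0.80), and an unnamed probe (r = 0.77). For Actc1 they were Aadat, an aminotransferase (r = 0.94), and a pair of unnamed probes (r = 0.86 and 0.81). For Pfn1 they were Ptma, prothymosin alpha (r = 0.85), Sdhd, a succinate dehydrogenase subunit (r = 0.83), and Tuba1b (r = 0.80). For Vim they were Rhox5, a homeobox gene (r = 0.94), and a pair of unnamed probes (r = 0.94 and 0.93). Among the 4 genes themselves r ran between 0.49 (Actb with Vim) and 0.78 (Actb with Actc1).

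Some of the named ones had differences close to those of the gene they resembled. They were picked by r over these same arrays, which favours such likeness, so it is no further result. Aadat was 1.16 above untreated cells at 2 h and Ptma 1.13, both called, beside 1.13 for Actc1 and 0.87 for Pfn1. Rhox5 was at -0.95 at 5 days, called, beside -1.08 for Vim. Others were smaller: at 2 h Ddx3x was at 0.79 and Dnaja1 at 0.52, neither called, beside 0.96 for Actb, and Sdhd was at 0.68, called, beside 0.87 for Pfn1. Over the 23 arrays of 1 to 24 h and untreated cells alone, Aadat stayed first for Actc1 (r = 0.95), while Slc25a5, a mitochondrial nucleotide carrier, came first for Actb (r = 0.92), Aldoa, an aldolase, for Pfn1 (r = 0.91) and an unnamed probe for Vim (r = 0.84).

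Markers of fibroblasts and of other cell types were read as differences from untreated cells, since ratios give no level. Of 8 fibroblast markers 4 fell at 1 h (Col1a1, Col1a2, Col3a1 and Dcn), the same 4 fell at 2 h, and 3 fell at 4 h, with medians of -0.95, -0.52 and -0.55. At 12 and 24 h none was called, against 0.0135% and 0.0203% of all features. That share was 0.168% at 1 h, 0.512% at 2 h and 0.225% at 4 h. For 3, 5 and 7 days it was 0.582%, 2.2% and 0.881%. At 3 days Col1a1 and Dcn rose, with a list median of 0.16. At 5 days the same pair rose and S100a4 fell, with a median of 0.41, beside Vim at -1.08. At 7 days Col1a1, Col1a2, Dcn and Pdgfrb rose and S100a4 fell, with a median of 0.62, beside Vim at -0.64. Of the 5 or 6 striated muscle markers tested none was called at any time, and their median was -0.08 at 2 h, when Actc1 was highest. No marker of smooth muscle, epithelial, blood or endothelial cells was called at any time. With so few of all features called, nothing is read from that. The part of these changes in the values of the 4 genes was not tested.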

How the data were processed

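RNA of 36 dual-colour cDNA arrays was analysed from the deposited table of log2 ratios; per the labels channel 1 held the named sample and channel 2 untreated cells, and the scanner software, background correction and normalization are not given in the sources used here. The 2807 log2 values above 12 (a ceiling in the deposited table) were set to missing, arrays were centred on their median and Cy3 arrays multiplied by -1. Values of 5 and 7 days were moved back to their probes from the pattern of values on other arrays, and 587 rows near the slides or at the table's end were left out there. On displacements simulated in 6 arrays of 1 h to 3 days, 99.4% to 99.96% of rows were placed right. Their reference held other arrays of their own group, which that of the 5 and 7 day arrays did not. A displacement from the first row, as in 5d replicate 1, was not simulated. The accuracy at 5 and 7 days may therefore be lower.

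Probes of 1 symbol were averaged (14030 probes had 1 symbol, 5 several and 6320 none), giving 16255 features. Limma 3.58.1 in R 4.3.3 fitted all 35 distinct arrays with 1 mean for each group plus 1 dye effect, followed by eBayes. A feature needed 3 values in each group compared. Arrays carry no read depth, and their number limits the precision. The labels do not say that replicates are separate cultures, so p-values measure the spread between these arrays, which may be technical.

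The 4 genes and all lists were chosen with earlier results of these data known. Named were the 4 genes with every probe, list genes called at any time, the 3 features most like each gene, Erbb2 and Gapdh; other list genes were named after their values were seen. Sequences came from RefSeq, and 3 of the 4 genes matched. Figures were drawn with matplotlib 3.10.9.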

Additional observations from a re-analysis of the deposited data

Results flagged for a closer look

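Groups of 4 arrays were examined for a single array far from the others, in 32 sets of gene means of the 4 genes (8 times each) and 15 sets of list genes at the time of their call. Of these 47 sets 2 had one, where chance gives about 1 in 20. Actc1 at 5 days was -0.35 in replicate 4, beside 0.14 to 0.16 in the other arrays. Vim at 12 h was -0.031 in replicate 4, beside -0.30 to -0.27 in the others.

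Among 28 pairs of neighbouring times of the gene means, 4 had every array of one time on one side of 0 and every array of the other on the opposite side. The share of such pairs over all features was not computed, so nothing is read from this count. Vim at 2 h was 0.62 above Vim at 1 h. At 12 h it was 0.73 below 4 h (a difference of -0.73), and at 24 h 0.36 above 12 h. Pfn1 at 3 days differed by -0.42 from 24 h. For Pfn1 the separation held in the gene mean and on neither probe. At 3 days probe 6010 ran from -0.495 to 0.481 and probe 2958 from -0.792 to 0.214. These differences between times were not tested.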

How the results depend on the processing

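The 7 called differences were Pfn1 at 1 h, Actb, Actc1 and Pfn1 at 2 h, Actb and Pfn1 at 4 h and Vim at 5 days, given in that order below. All 7 kept their call under quantile normalization, against 0 in place of the untreated arrays, with array weights, with values above 12 kept, with the median of probes, and with complete features only. Without turning the Cy3 arrays they were -0.22, -0.029, -0.34, -0.25, 0.057, -0.21 and 0.18, none called. Without centring they were 0.38, 0.75, 0.92, 0.65, 0.73, 0.48 and -1.31, and fitting each pair of groups by itself 0.56, 0.96, 1.12, 0.86, 0.85, 0.60 and -1.11, none called in either. In the rows as deposited Actb and Pfn1 at 2 h stayed called, and the others were 0.57, 1.10 (Actc1), 0.89, 0.62 and -0.28. Pfn1 at 1 h lost its call at 0.54 with a dye effect for each group, at 0.59 with no dye effect and at 0.57 with the replicate block. The replicate numbers do not pair the arrays (median r of same-numbered deviations 0.024, of the same dye with another number 0.021), and the block changed no other of the 7 calls. Leaving out 1 array in turn gave 0.49 to 0.65, 0.91 to 0.99, 1.07 to 1.24, 0.79 to 0.94, 0.82 to 0.94, 0.54 to 0.69 and -1.14 to -0.99.

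The 25 differences not called gained a call 31 times over all settings. With only the arrays of 1 to 24 h and untreated cells, all 6 early calls stayed, and Actc1 at 1 and 4 h, Vim at 2 and 4 h and Pfn1 at 24 h were called too. Actc1 at 4 h was also called under quantile normalization (1.51), a dye effect for each group (1.05), against 0 (0.85), array weights (1.15), complete features (1.10) and without untreated replicate 1 (1.21). Array weights also called Vim at 2 h (0.44) and 4 h (0.52), and a dye effect for each group Vim at 4 h (0.57).

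Chosen after seeing the data, Cy5 arrays alone gave 0.44, 1.08, 0.92, 0.71, 1.07, 0.50 and -0.95, none called. Cy3 arrays alone kept the calls of Actc1 and Vim, and the others were 0.63, 0.89, 0.96, 0.71 and 0.66. The 15 calls on list genes became 8 without centring, 29 with a dye effect for each group, 49 against 0, 53 with array weights, 0 with each pair of groups by itself, 7 in the deposited rows, 0 and 34 with Cy5 and Cy3 arrays alone, 24 without untreated replicate 1, and 12 to 24 over the untreated arrays left out. Why the calls changed was not tested.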
